A study of Homo sapiens with 16 samples.

Results

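The transcription starts of long noncoding RNA (lncRNA) genes were examined in 16 CUT&Tag libraries of BE2C cells, a human neuroblastoma line with amplified MYCN. A start was the first base of a gene of type lncRNA on the autosomes of hg19 in GENCODE release 44, mapped to that build, with a window of 1 kb on each side. Only starts over 5 kb from any start of a protein-coding transcript were kept, to limit the counting of marks at neighbouring coding promoters. A broad region that reached from such a promoter into a window was still counted. This left 13040 windows of the 18229 autosomal lncRNA genes, and 9453 of the genes kept carried an Ensembl identifier only. Of the windows, 11837 overlapped no other of the set, and the rest share DNA with a neighbour.

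In CUT&Tag an antibody brings a transposase to chromatin that carries a given mark, and the DNA there is cut and sequenced. Trimethylation of histone H3 lysine 27 (H3K27me3) and monomethylation of its lysine 4 (H3K4me1) were mapped in cells given the siRNA siKDM6B33 or the control siRNA siCtrl for 72 h, and in cells given 2.5 µM GSK-J4 or 0.1% DMSO for 72 h, with 2 libraries for each mark and condition. KDM6B removes methyl groups from H3K27, GSK-J4 inhibits demethylases of the KDM6 family, and the question was what loss or inhibition of KDM6B does to both marks. All 8 groups came from the same cell line, a single siRNA against KDM6B was used, and the lists of regions hold no transcript count, so the knockdown itself could not be checked here.

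An lncRNA is transcribed by RNA polymerase II, as messenger RNA is, but is not translated. Many lncRNA genes start at CpG-poor sequence inside enhancers and are weakly transcribed, whereas others, such as the host genes of small nucleolar RNAs, start at CpG islands as housekeeping genes do. H3K27me3 is laid down by Polycomb repressive complex 2 and marks silent genes, often at CpG islands of developmental regulators. H3K4me1 is laid down by the methyltransferases KMT2C and KMT2D, lies at enhancers and flanks active promoters, whose centre carries trimethylated H3K4 instead.

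A window was called CpG-rich when its GC content was at least 50% and its CpG observed over expected at least 0.6. This held for 712 lncRNA starts (5.46%), beside 9149 of 19229 protein-coding starts (47.6%) and 2472 of 1202903 distal tiles (0.206%), which are consecutive windows of the same width with a centre over 5 kb from any coding start. Tiles were taken wherever they fell, so some of them lie on lncRNA starts. The 300 bp of 7 starts, beginning 250 bp before the first base, are given here from the hg19 genome, 5′ to 3′ along the gene, with the CpG dinucleotides in capitals, because the share of starts that changed differed with CpG content. They were chosen after their values were seen, to show starts of each kind.
SNHG5 (chr6:86388601-86388900, minus strand): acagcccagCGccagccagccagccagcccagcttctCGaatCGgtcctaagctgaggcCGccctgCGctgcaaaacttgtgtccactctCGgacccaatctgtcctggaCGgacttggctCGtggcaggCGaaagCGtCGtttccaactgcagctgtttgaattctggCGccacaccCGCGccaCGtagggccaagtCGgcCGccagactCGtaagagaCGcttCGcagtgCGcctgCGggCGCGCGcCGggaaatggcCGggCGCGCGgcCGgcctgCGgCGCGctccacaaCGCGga
NORAD (chr20:34638891-34639190, minus strand): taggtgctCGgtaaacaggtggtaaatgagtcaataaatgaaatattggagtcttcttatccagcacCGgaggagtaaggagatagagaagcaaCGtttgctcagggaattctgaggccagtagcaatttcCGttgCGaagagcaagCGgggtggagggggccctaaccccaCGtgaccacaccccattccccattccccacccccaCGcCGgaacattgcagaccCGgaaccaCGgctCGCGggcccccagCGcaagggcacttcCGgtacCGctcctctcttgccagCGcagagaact
MALAT1 (chr11:65264861-65265160, plus strand): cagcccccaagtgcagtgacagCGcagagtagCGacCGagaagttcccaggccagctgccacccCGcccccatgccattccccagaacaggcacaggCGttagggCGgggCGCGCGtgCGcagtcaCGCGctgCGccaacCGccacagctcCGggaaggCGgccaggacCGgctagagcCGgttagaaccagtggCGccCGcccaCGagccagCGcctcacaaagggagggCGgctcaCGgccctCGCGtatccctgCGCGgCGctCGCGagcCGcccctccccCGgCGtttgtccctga
LINC00461 (chr5:87986825-87987124, minus strand): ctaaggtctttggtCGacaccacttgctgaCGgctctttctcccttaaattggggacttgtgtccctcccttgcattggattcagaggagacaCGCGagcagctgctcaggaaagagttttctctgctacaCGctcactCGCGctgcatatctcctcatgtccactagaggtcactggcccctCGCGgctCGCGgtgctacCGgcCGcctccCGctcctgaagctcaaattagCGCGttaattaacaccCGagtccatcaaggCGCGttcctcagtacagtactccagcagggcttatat
MIR137HG (chr1:98515378-98515677, minus strand): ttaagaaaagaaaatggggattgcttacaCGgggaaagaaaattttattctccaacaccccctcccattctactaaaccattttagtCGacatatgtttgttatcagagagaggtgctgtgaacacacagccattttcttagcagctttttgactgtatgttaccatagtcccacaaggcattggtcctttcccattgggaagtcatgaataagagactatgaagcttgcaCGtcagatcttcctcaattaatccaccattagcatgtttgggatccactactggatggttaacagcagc
KIAA0087 (chr7:26578358-26578657, minus strand): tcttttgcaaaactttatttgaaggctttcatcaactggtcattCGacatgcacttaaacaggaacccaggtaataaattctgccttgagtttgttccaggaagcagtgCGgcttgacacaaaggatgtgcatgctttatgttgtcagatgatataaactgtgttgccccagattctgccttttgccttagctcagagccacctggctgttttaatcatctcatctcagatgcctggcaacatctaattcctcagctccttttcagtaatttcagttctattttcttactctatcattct
KLF7-IT1 (chr2:207986719-207987018, minus strand): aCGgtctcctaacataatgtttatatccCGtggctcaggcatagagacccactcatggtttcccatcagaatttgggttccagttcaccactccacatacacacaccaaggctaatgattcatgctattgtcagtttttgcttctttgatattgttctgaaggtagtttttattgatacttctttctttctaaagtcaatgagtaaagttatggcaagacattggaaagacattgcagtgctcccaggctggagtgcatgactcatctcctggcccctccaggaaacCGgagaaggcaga

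SNHG5 and NORAD had 36 and 17 CpG dinucleotides in these 300 bp, and gained H3K4me1 islands after knockdown. MALAT1 had 34. LINC00461 had 19, kept H3K27me3 in all 8 libraries of that mark and gained H3K4me1. MIR137HG, a host of the neuronal microRNA miR-137, gained H3K4me1 with only 3. KIAA0087 had 2 and gained H3K27me3 after knockdown, and KLF7-IT1, an intronic transcript of KLF7, had 3 and lost H3K4me1. The median over all 13040 starts was 3, and over the 712 CpG-rich starts 27.

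The authors had called broad regions, named islands here, and narrow peaks in every library separately. A start was called when an island shared at least 1 bp with its window. Gained starts were those with a call in each of the treated libraries and none in the controls, and lost starts had the opposite pattern. The genome background, the mean number of tags over a base and a measure of depth, was 0.0298 to 0.0539 for H3K27me3 and 0.0483 to 0.107 for H3K4me1. It was higher in both treated libraries than in both controls in 3 comparisons, with 0.0539 and 0.0529 against 0.0395 and 0.0401 for H3K27me3 after knockdown, 0.107 and 0.105 against 0.0902 and 0.0849 for H3K4me1 after knockdown, and 0.0507 and 0.0371 against 0.0298 and 0.0338 for H3K27me3 with GSK-J4. For H3K4me1 with GSK-J4 the values were 0.0547 and 0.0559, and 0.0569 and 0.0483 with DMSO. Depth and treatment cannot be told apart in the first 3 comparisons.

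Some libraries stood apart before any comparison. GSK-J4 replicate 1 of H3K27me3 had islands of a median width of 4000 bp over lncRNA starts, beside 9600 bp in replicate 2 and 8400 and 9200 bp with DMSO. The replicates of this group shared 768 called starts, which was 69.0% of those of replicate 1 and 85.3% of those of replicate 2, whereas in the other 7 groups the shares were 81.4% to 92.2%. The H3K27me3 islands of the compound experiment also lay where H3K4me1 was called. With DMSO 454 of 696 starts with H3K27me3 in both libraries had H3K4me1 in both as well (65.2%), and with GSK-J4 527 of 768 (68.6%). With siCtrl there were 102 of 660 (15.5%), and with siKDM6B33 192 of 957 (20.1%). The distal tiles showed the same split, with 59.5% and 68.0% against 6.74% and 5.82%.

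The contrast between the experiments was sharpest at starts called in one and not in the other. H3K27me3 islands were found in all 4 libraries of the compound experiment and in none of the 4 of the knockdown experiment at 292 lncRNA starts (2.24%, beside 0.681% of distal tiles). Of these 292, 280 (95.9%) carried H3K4me1 islands in all 8 libraries of that mark, and none was without H3K4me1. Distal tiles with this pattern had H3K4me1 in all 8 at 93.6%, close to the share at lncRNA starts. The opposite pattern was found at 120 starts (0.92%, beside 0.39% of distal tiles). Of these 120, 0 had H3K4me1 in all 8 libraries and 105 (87.5%) had it in none, beside 95.9% of such tiles. Over all 13040 starts, 683 (5.24%) had H3K4me1 in all 8. MEG3, a maternally expressed growth-suppressing lncRNA, was covered to 0% by H3K27me3 islands in the 4 libraries of the knockdown experiment and to 100% in the 4 of the compound experiment, while H3K4me1 covered 100% of it in all 8. TBX2-AS1, an antisense gene at the locus of the transcription factor TBX2, and MIR9-3HG, a host of the neural microRNA miR-9, had the same values. MIAT had 100%, 0%, 100% and 100% in DMSO replicates 1 and 2 and GSK-J4 replicates 1 and 2, and 0% in the 4 others. No narrow H3K27me3 peak was called in the windows of MEG3, MIAT and TBX2-AS1 in any of the 8 libraries. How far H3K27me3 islands of the compound experiment measure H3K27me3 at such starts was not tested.

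At least 1 island of either mark in any of the 16 libraries was found at 3230 starts (24.8%), 2046 for H3K27me3 and 2254 for H3K4me1. The share of lncRNA starts called in a library was 5.70% to 8.63% for H3K27me3 and 8.54% to 12% for H3K4me1. In every library it lay above the share of distal tiles, by 4.58 ± 0.691 percentage points for H3K27me3 and by 6.67 ± 1.12 for H3K4me1 (SD, n = 8, higher in 8 of 8, exact sign-flip permutation p = 0.00781, the smallest that 8 libraries allow, 0.00937 adjusted over 12 such tests). It lay below the share of protein-coding starts by 9.27 ± 1.53 points and 20.5 ± 15.4 points (lower in 8 of 8, same exact p). CpG-poor lncRNA starts alone exceeded CpG-poor tiles by 3.63 ± 0.714 points for H3K27me3 and 5.62 ± 0.490 for H3K4me1 (8 of 8, same exact p). The libraries of a group are described by the study as biological replicates, with no word on how the cultures were separated. These p-values measure only the spread between libraries, and those of the 2 marks and 4 conditions share 1 cell line.

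**Figure D1:**
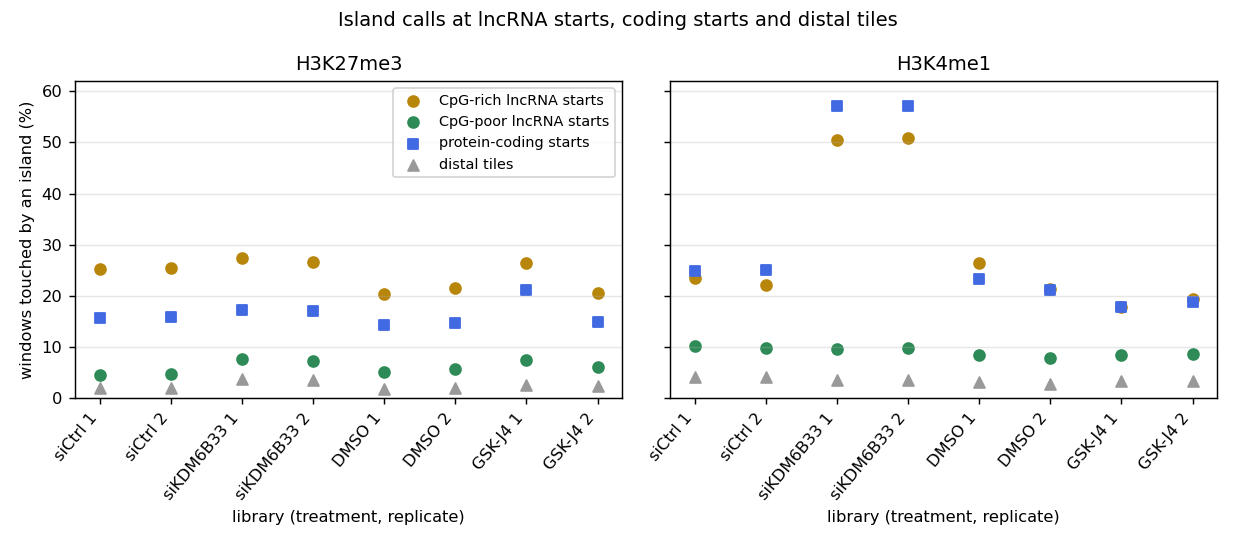
Percent of windows touched by an island in each of the 16 libraries, for CpG-rich and CpG-poor lncRNA starts, protein-coding starts and distal tiles. CpG-rich lncRNA starts carried H3K4me1 at 50.4% and 50.8% in the knockdown libraries, above the 17.8% to 26.4% of the other 6.

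Both marks were called more often at CpG-rich starts. H3K27me3 was called at 24.2% of CpG-rich and 6.08% of CpG-poor lncRNA starts on average over the 8 libraries, and H3K4me1 at 29.0% and 9.04%. The difference was 18.1 ± 2.54 points for H3K27me3 and 19.9 ± 13.2 for H3K4me1 (SD, n = 8, higher in 8 of 8, exact sign-flip permutation p = 0.00781 each). Compared with CpG-rich coding starts, CpG-rich lncRNA starts carried H3K27me3 more often in 7 of 8 libraries, by 3.08 ± 2.50 points (exact sign-flip permutation p = 0.0156), with GSK-J4 replicate 1 the exception. They carried H3K4me1 less often in 8 of 8, by 12.7 ± 11.3 points (p = 0.00781, the same exact test). Against CpG-rich tiles the H3K27me3 share differed by 1.46 ± 1.31 points, which did not pass the threshold of 0.05 (6 of 8, exact sign-flip permutation p = 0.0547), and the H3K4me1 share was higher by 6.98 ± 7.81 points (8 of 8, exact p = 0.00781).

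Starts over 100 kb from any coding start were called least often. Between 5 and 20 kb from a coding start lay 3150 lncRNA starts, of which 7.11% to 11.7% were called for H3K27me3 and 11.3% to 15.9% for H3K4me1 over the libraries. From 20 to 100 kb lay 5363, with 6.58% to 9.79% and 9.47% to 13.3%, and for H3K27me3 after knockdown this class was above the nearest one (9.68% and 9.57% against 9.59% and 8.86%). Over 100 kb away there were 4527, and the ranges were 3.25% to 6.74% and 5.12% to 7.60%. By place, H3K4me1 was called at 9.53% to 13.3% of the 2792 starts inside a coding gene on the other strand, 7.09% to 10.0% of the 1157 on the same strand and 8.23% to 12.6% of the 9091 outside coding genes. The order of the first and the last class differed between libraries, with 13.3% and 12.9% against 10.2% and 9.9% with siCtrl, and 10.6% and 11% against 12.5% and 12.6% after knockdown. The 81 genes named as hosts of microRNAs or small nucleolar RNAs were called for H3K4me1 at 14.8% to 40.7%, the highest range among the name classes, beside 7.68% to 10.5% for genes with an Ensembl identifier only. By chromosome, the mean H3K4me1 share was lowest on chromosome 18 (2.61% of 436 starts) and highest on chromosome 22 (17.9% of 303), and the same chromosomes were lowest and highest for H3K27me3 (2.72% and 11.2%).

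To see what KDM6B knockdown does to H3K4me1 at lncRNA starts, the classes were compared between conditions. At CpG-rich starts the H3K4me1 share was 23.5% and 22.1% with siCtrl and 50.4% and 50.8% with siKDM6B33. In the compound experiment the DMSO libraries had 26.4% and 21.3%, whereas those given GSK-J4 had 17.8% and 19.4%. Both knockdown libraries thus lay far above both controls and both GSK-J4 libraries lay below both DMSO libraries. The differences were 27.9 points after knockdown (22.8 ± 0.993% against 50.6 ± 0.298%, SD, n = 2 each) and −5.27 points with GSK-J4 (23.9 ± 3.58% against 18.6 ± 1.09%). Both had an exact permutation p of 0.33, the smallest that 2 libraries against 2 allow, and 0.444 adjusted over the 4 comparisons. The knockdown difference was larger than the spread between replicates. The GSK-J4 difference was close in size to the gap between the DMSO replicates, and was −2.74 points without DMSO replicate 1 and −7.79 without DMSO replicate 2. At CpG-poor starts the share was 10.1% and 9.82% with siCtrl and 9.59% and 9.71% with siKDM6B33, a difference of −0.320 points (−2.02 at equal covered length, −1.54 with an equal number of islands and −0.712 over windows that overlapped no other), and with GSK-J4 the groups overlapped. Over all lncRNA starts the knockdown difference was 1.22 points (10.8% and 10.5% against 11.8% and 12%), and 0.291 points over windows that overlapped no other. Narrow peaks over all starts went the other way, from 14.1% and 13.6% to 13.6% and 13.5%, a difference of −0.353 points (−0.0844 without siCtrl replicate 1, −0.621 without siCtrl replicate 2, and 3.54 for peaks with a −log10 q of 5 or more), and at CpG-poor starts by −1.54 points (exact permutation p = 0.33 each).

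The change at CpG-rich starts was also seen with lists of equal size. With islands taken by score, highest first, to an equal covered length in the 4 libraries, the knockdown difference was 21.2 points, and with an equal number of islands, widest first, 20.5 points, whereas over all lncRNA starts it turned to −0.752 and −0.337 points. In narrow peaks the share of CpG-rich starts was 42.7% and 42.8% with siCtrl and 62.5% and 63.5% with siKDM6B33 (exact permutation p = 0.33). CpG-rich distal tiles moved the same way, from 18.1% and 17% to 31.3% and 31.4%, and CpG-rich coding starts from 32.4% and 33.1% to 81.1% and 81.3%. The share of CpG-rich lncRNA starts minus that of CpG-rich coding starts was −8.95 and −11.1 points with siCtrl and −30.7 and −30.4 points with siKDM6B33 (exact permutation p = 0.33).

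**Figure D2:**
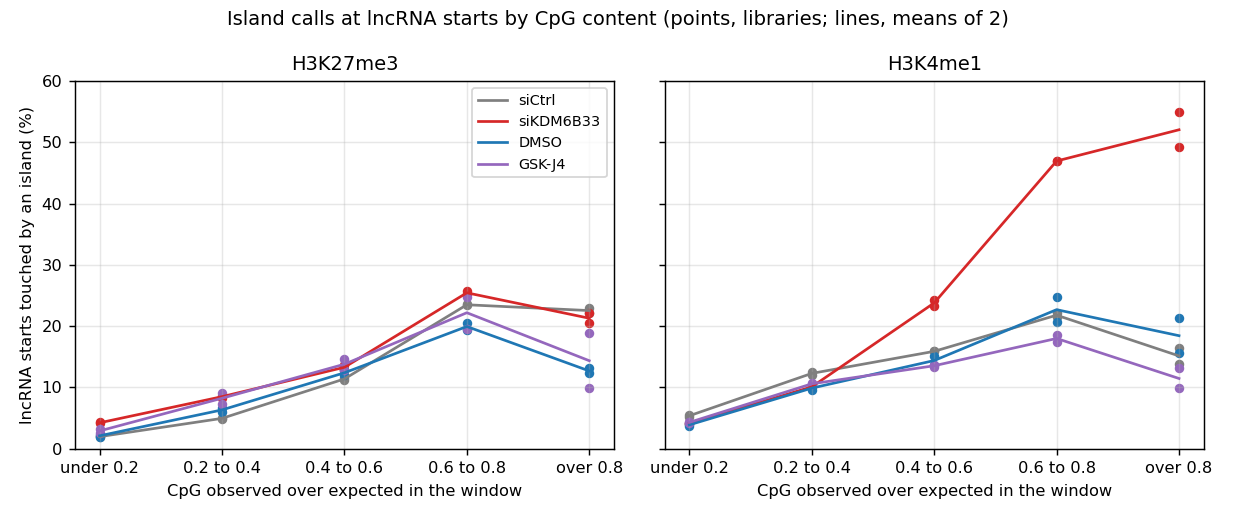
Percent of lncRNA starts touched by an island against the CpG observed over expected of the window, with a point for each library and lines through the means of 2 replicates. H3K4me1 in the knockdown libraries rose from 4.1% and 4.2% of starts in the lowest bin to 49.2% and 54.9% in the highest.

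The plot by CpG observed over expected shows where the knockdown and its control parted. Below 0.2 (4906 starts) H3K4me1 was called at 5.56% and 5.22% with siCtrl and at 4.1% and 4.2% after knockdown, so that the knockdown was lower. From 0.4 to 0.6 (1512 starts) it was 15.9% in both controls and 23.3% and 24.3% after knockdown. From 0.6 to 0.8 (725 starts) it was 22.1% and 21.5% against 47.0% and 46.9%, and over 0.8 (122 starts) 16.4% and 13.9% against 49.2% and 54.9%. With GSK-J4 the order was the other way at over 0.8, with 21.3% and 15.6% with DMSO and 9.84% and 13.1% with the compound.

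The position around the start was then followed in steps of 200 bp. At CpG-rich starts H3K4me1 islands covered the first base itself at 22.2% and 20.6% of genes with siCtrl and 48.9% and 49.6% with siKDM6B33. At 1 kb before the start the shares were 15.0% and 14.3% against 31.0% and 30.9%, and at 1 kb after it 17.8% and 15.2% against 37.6% and 36.5%. At 3 kb before they were 6.18% in both controls, against 8.85% and 8.15%. The gain was thus centred on the start and fell off within a few kb. These starts were chosen by the CpG content of the window around them, and no profile was made around CpG-rich tiles. What the start itself adds to this shape was therefore not tested. At CpG-poor starts the 4 values at the first base were 8.64%, 8.38%, 8.27% and 8.45%.

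**Figure D3:**
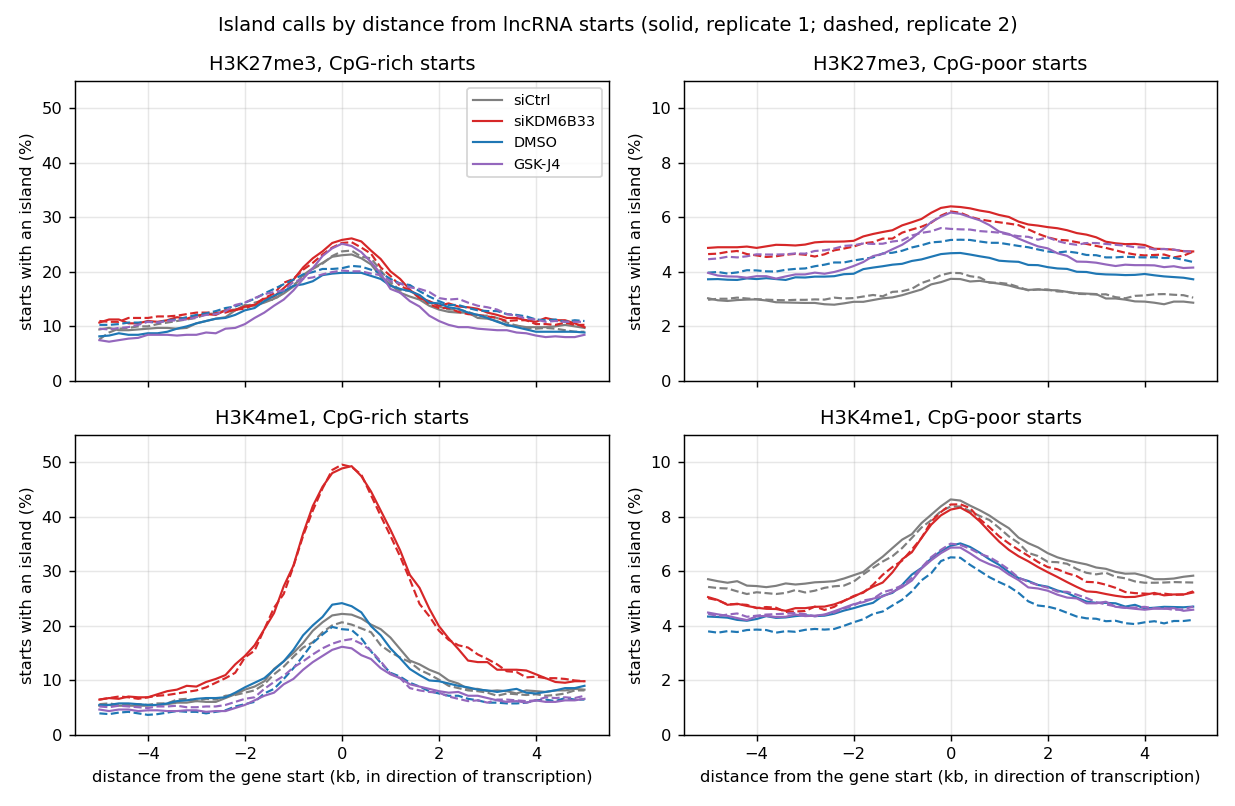
Percent of lncRNA genes with an island at each distance from the start, in kb along the direction of transcription, for each mark and CpG class, with a line for each library (solid, replicate 1; dashed, replicate 2). The vertical axes differ between CpG-rich and CpG-poor starts. H3K4me1 at CpG-rich starts peaks at the start at 48.9% and 49.6% in the knockdown libraries.

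Counted by gene, 412 lncRNA starts gained H3K4me1 islands after knockdown (3.16%) and 233 lost them (1.79%). The background was 0.465% gained and 0.888% lost among distal tiles, and 29.8% and 0.78% among protein-coding starts, so lncRNA starts lay above tiles in both directions. The balance turned with lists of equal size, to 277 gained and 324 lost at equal covered length and 266 gained and 271 lost with an equal number of islands. Over the 11837 windows that overlapped no other, 287 gained and 220 lost islands, so some gains were counted at starts that share DNA. Of the 412 gained starts 180 were CpG-rich, which was 25.3% of the CpG-rich starts and 1.88% (232) of the CpG-poor ones. Of the 233 lost, 2 were CpG-rich (0.281% of that class, beside 1.87% of CpG-poor starts). A pattern with 1 of 2 libraries called in each group was seen at 29 starts, which is 7.25 for each of the 4 ways it can arise. An island gained was not always a site without signal before: at 196 of the 412 a narrow H3K4me1 peak was called in both siCtrl libraries, and at 114 in neither. At 354 of them it was called in both knockdown libraries.

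CpG-rich starts with and without H3K27me3 gained H3K4me1 at similar shares. In the knockdown experiment 168 CpG-rich starts had H3K27me3 islands in all 4 libraries, and 42 of these gained H3K4me1 (25.0%). Of the 502 with H3K27me3 in none of the 4, 126 gained it (25.1%). H3K4me1 in all 4 libraries was found at 43 (25.6%) and 99 (19.7%). By distance to the nearest coding start the shares were 25.6% gained among CpG-rich starts at 5 to 20 kb, 26.9% at 20 to 100 kb and 21.2% beyond 100 kb.

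Genes of the lists were read against the shares over all and over CpG-rich lncRNA starts. After knockdown 3.16% of all starts gained H3K4me1 islands, 1.79% lost them and 7.12% had them in all 4 libraries. Of CpG-rich starts 25.3% gained them, 0.281% lost them and 20.6% had them in all 4. Of the 17 starts on the list of abundant nuclear and housekeeping lncRNAs, 13 were CpG-rich and 7 gained H3K4me1 islands after knockdown, 0 lost them and 8 had them in all 4 libraries. SNHG5, a small nucleolar RNA host on chromosome 6 from 86360209 to 86388650, was covered to 0% in both siCtrl libraries and to 80.0% and 87.5% after knockdown, with 0% in the 4 libraries of the compound experiment. Its strongest narrow peak stood 5.26- and 5.32-fold over the background of its library with siCtrl and 9.43- and 7.25-fold after knockdown, so the site was not empty in the controls. NORAD, a lncRNA that binds Pumilio proteins (chromosome 20 from 34633540 to 34638940), went from 0% in both controls to 93.0% and 73.0%. SNHG8 went from 0% to 82.9% in both knockdown libraries, and SNHG12 to 47.8% and 37.8%, with no narrow peak called there in any library. EPB41L4A-AS1 was covered to 61.1% in both and LINC00667 to 81.2% and 91.2%, each after 0% in both controls. SNHG6 was the last of the 7, at 28.4% and 68.4%.

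Other housekeeping lncRNAs already carried the mark. DANCR, a repressor of differentiation in progenitor cells, was covered to 84.6% and 94.6% in the controls against 84.6% in each knockdown library, and its strongest narrow peak was 5.40- and 5.35-fold against 14.2- and 11-fold. SNHG15 had 62% and 82.0% against 100% in both, and SNHG16 100% and 90.4% against 100% in both. DANCR, SNHG15 and SNHG16 were covered to 0% in all 4 libraries of the compound experiment, where the H3K4me1 libraries were shallower. SNHG7 was covered to 100% in 7 of the 8 libraries and to 61.8% in DMSO replicate 2. HEIH, among the starts with the largest gain in coverage, went from 0% in both controls to 100% in both knockdown libraries, with peaks of 6.97- and 6.17-fold against 15.4- and 21.5-fold.

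Of the 13 starts on the list of neuroblastoma-associated lncRNAs, of which 5 were CpG-rich, 4 gained H3K4me1 after knockdown, 0 lost it and 6 had it in all 4 libraries. Gains were found at 3.16% of all and 25.3% of CpG-rich lncRNA starts, and calls in all 4 libraries at 7.12% and 20.6%. MIR17HG, the host of the miR-17-92 cluster of oncogenic microRNAs on chromosome 13 from 91999940 to 92049846, was covered to 0% with siCtrl and to 97.0% and 87.0% after knockdown. Its narrow H3K4me1 peaks did not follow, with 4.42- and 5.07-fold in the controls against 4.85-fold in knockdown replicate 1 and none in replicate 2. With DMSO it was covered to 87.0% and 77% and with GSK-J4 to 0% in both, so that it counted as gained in 1 experiment and lost in the other. Its H3K27me3 coverage was 50.0% and 87.0% with siCtrl, 97.0% and 50.0% after knockdown and 0% in the compound experiment. CASC15, at a neuroblastoma risk locus, carried H3K27me3 in all 8 libraries (50.7% to 100%) and went from 0% to 70.7% and 50.7% for H3K4me1. NBAT1, its neighbour and a tumour suppressor lncRNA, had 31.1% in both controls and 100% in both knockdown libraries, and strongest narrow peaks of 6.23- and 7.03-fold only after knockdown. DLX6-AS1, antisense in the DLX5 and DLX6 locus, went from 0% to 80.0% and 50.0%, with no narrow peak in any library. The lists were chosen with earlier results of these data known, so their counts are a description.

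Of the 10 starts on the neural and developmental list, of which 2 were CpG-rich, 3 gained H3K4me1 and 0 lost it, to be read against the same shares of 3.16% and 25.3%. LINC00461, a brain-expressed host of a miR-9 gene on chromosome 5 from 87803363 to 87986874, had H3K27me3 over 100% of its window in all 8 libraries. Its H3K4me1 coverage was 0% in both siCtrl libraries, 100% in both knockdown and both DMSO libraries, and 100% and 60% with GSK-J4. MIR137HG went from 0% to 100% in both knockdown libraries and stayed at 0% in the compound experiment, with a start that is CpG-poor. The third was DLX6-AS1, which is on both lists. MIR9-1HG carried H3K4me1 at 57.7% to 100% in all 8 libraries and no H3K27me3 island. MIR124-1HG, host of a microRNA of differentiated neurons, carried H3K27me3 at 72.9% to 100% in all 8 and no H3K4me1 island.

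**Figure D4:**
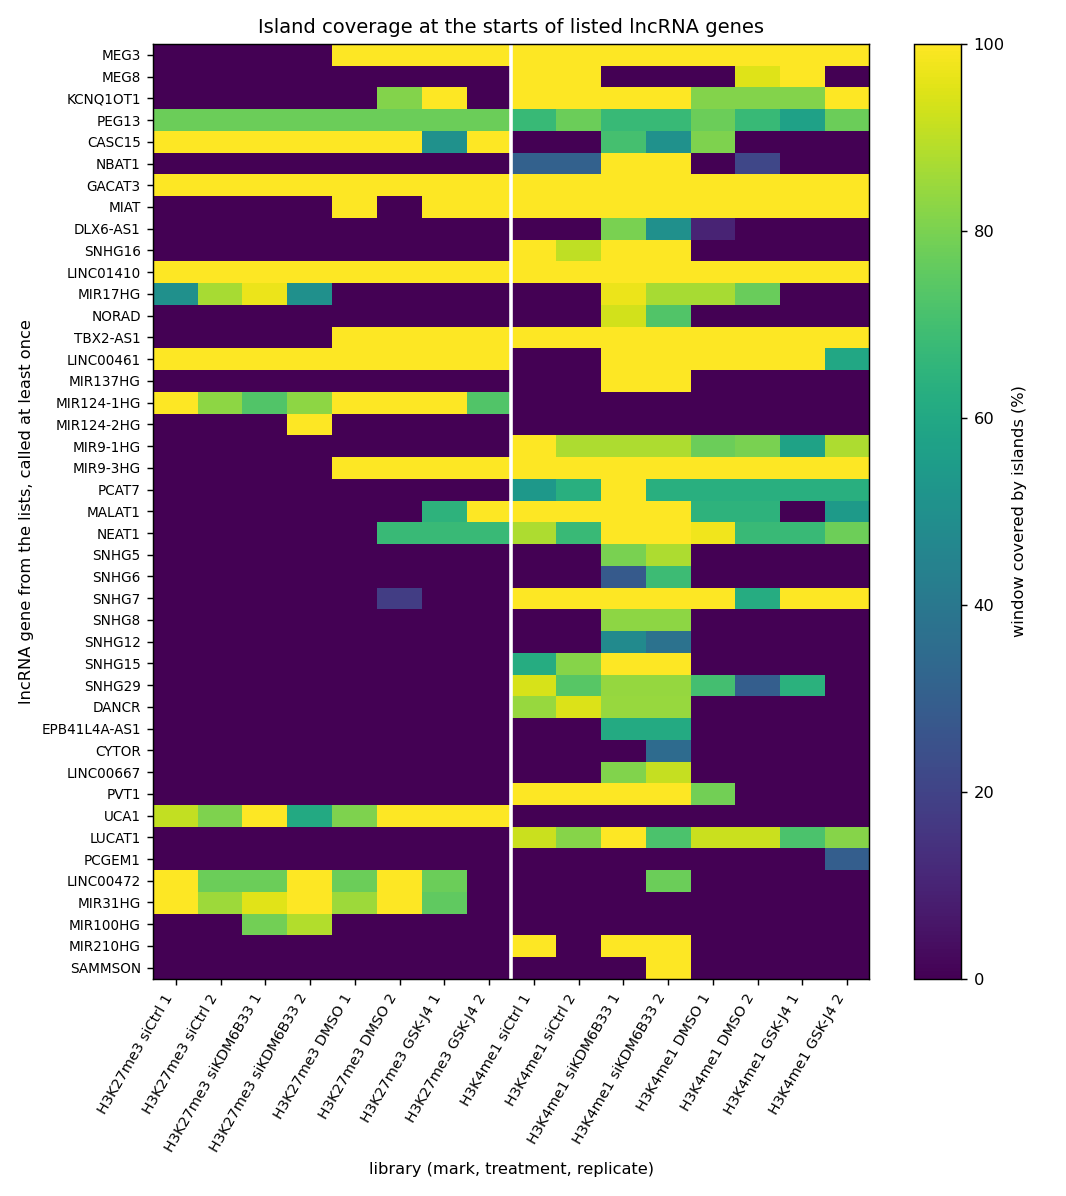
Percent of the 2-kb window covered by islands in each of the 16 libraries (H3K27me3 left, H3K4me1 right of the white line), for lncRNA genes of the 5 lists called at least once. SNHG5, SNHG8, SNHG12 and NORAD have H3K4me1 islands only in the 2 knockdown libraries, and MEG3, TBX2-AS1 and MIR9-3HG have H3K27me3 islands only in the 4 libraries of the compound experiment.

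Of the 14 imprinted starts 4 carried any island, beside 24.8% of all lncRNA starts, and MEG8, downstream of MEG3, lost H3K4me1 after knockdown (100% in both controls against 0% in both), whereas KCNQ1OT1 kept 100% in these 4 libraries. KCNQ1OT1, the paternally expressed antisense of KCNQ1, had H3K27me3 at 81.6% in DMSO replicate 2 and 100% in GSK-J4 replicate 1 only. PEG13 carried both marks in all 16 libraries, at 77.4% for H3K27me3 and 57.4% to 77.4% for H3K4me1. Of the 20 cancer-associated starts 9 carried any island and 1 changed in any comparison, MIR100HG, which gained H3K27me3 after knockdown (0% in both controls against 78.6% and 88.6%), where 1.77% of all starts did. UCA1 carried H3K27me3 at 60.8% to 100% in all 8 libraries and no H3K4me1 island. MIR31HG had it at 75.5% to 100% in 7 libraries and at 0% in GSK-J4 replicate 2.

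H3K4me1 was also lost after knockdown, at 1.87% of CpG-poor and 0.281% of CpG-rich starts. KLF7-IT1 was covered to 100% in both siCtrl libraries and 0% in both knockdown libraries, with 0% with DMSO and 0% and 88.4% with GSK-J4. BFSP2-AS1 likewise went from 100% to 0%, and its narrow peaks of 5.19- and 6.66-fold were not called after knockdown. At KLF7-IT1 no narrow peak was called in the knockdown experiment. Of all 233 lost starts, 109 had a narrow peak in both siCtrl libraries, and 37 of these had none in either knockdown library.

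With GSK-J4, 96 lncRNA starts gained H3K4me1 islands (0.736%) and 85 lost them (0.652%), beside 0.337% gained and 0.173% lost among distal tiles and 0.546% and 2.21% among coding starts. Of the 85 lost 18 were CpG-rich (2.53% of that class) and of the 96 gained 1 was (0.140%), whereas after knockdown CpG-rich starts were frequent among the gained and rare among the lost. CHASERR, a lncRNA that represses its neighbour CHD2, was covered to 100% in 6 of the 8 libraries and to 0% in both GSK-J4 libraries. MIR193BHG had 82.3% in both DMSO and both siCtrl libraries, 100% after knockdown and 0% with GSK-J4. HECW2-AS1 went from 100% and 92.6% to 0%, but its narrow peaks of 4.95- and 5.66-fold were still called, at 4.34- and 5.11-fold. LINC01978 and NECTIN4-AS1 went from 0% to 100% in both. Narrow peaks were called at LINC01978 with DMSO already, at 3.41- and 5.19-fold against 5.32- and 7.59-fold with GSK-J4. At NECTIN4-AS1 none was called in the compound experiment. At equal covered length 72 were gained and 101 lost, and with an equal number of islands 86 and 92, so the excess of gains turned into one of losses. With 1 library left out, 117 to 168 were gained and 123 to 177 lost, and without DMSO replicate 2 there were 117 gained and 177 lost. Leaving out a library loosens the rule for gained and lost starts, so these counts cannot fall. Replicate noise was larger here, since 76 starts were called in 1 of 2 libraries of each group, or 19 for each of the 4 ways.

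**Figure D5:**
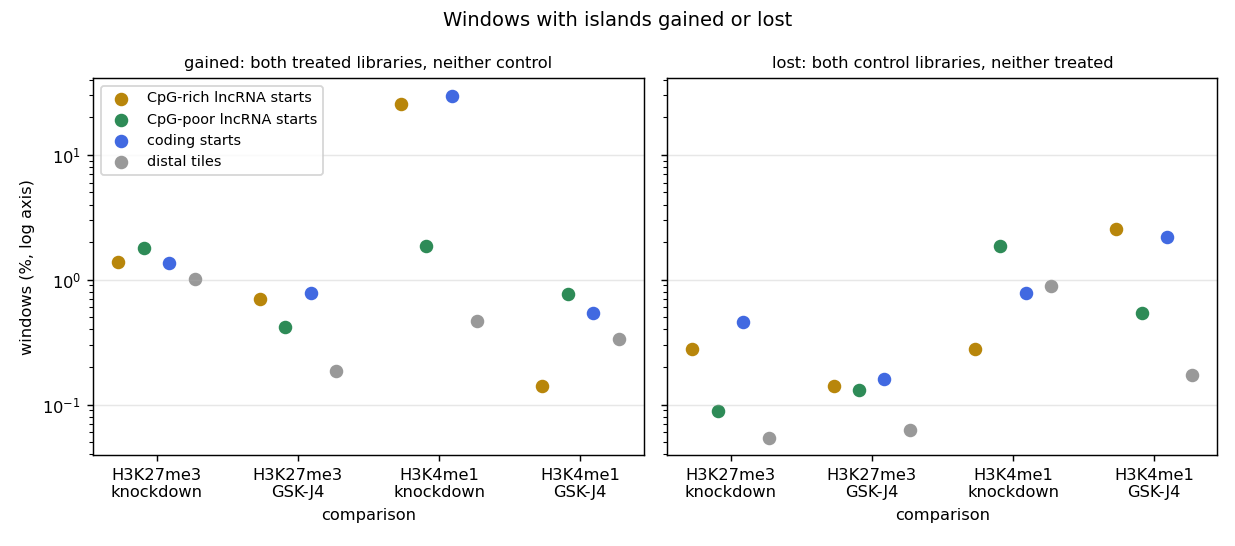
Percent of windows with islands gained (left) or lost (right) in the 4 comparisons, on a log axis, for CpG-rich and CpG-poor lncRNA starts, coding starts and distal tiles. H3K4me1 after knockdown was gained at 25.3% of CpG-rich and 1.88% of CpG-poor lncRNA starts.

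The starts that changed in both experiments were counted as a share of each list. For H3K4me1, 6 starts were in both gained lists (1.46% of the knockdown list and 6.25% of the GSK-J4 list) and 9 in both lost lists (3.86% and 10.6%). Another 26 starts had lost the mark in the knockdown but acquired it under GSK-J4 (11.2% and 27.1%), and 7 starts, MIR17HG among them, had done the opposite (1.70% and 8.24%). The 26, none of them CpG-rich, include ELAVL4-AS1, DCST1-AS1 and SLIT3-AS1, and were named after their values were seen. Over all starts 0.736% gained and 0.652% lost H3K4me1 with GSK-J4. For H3K27me3 no start was gained in both, from lists that held only 1.77% and 0.437% of all starts.

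H3K27me3 was called at more lncRNA starts after knockdown. The share was 5.70% and 5.87% with siCtrl and 8.63% and 8.40% with siKDM6B33, a difference of 2.73 points (5.78 ± 0.119% against 8.52 ± 0.168%, SD, n = 2 each, exact permutation p = 0.33). The share rose at CpG-poor starts, from 4.57% and 4.74% to 7.55% and 7.34%, and smaller at CpG-rich starts, from 25.3% and 25.4% to 27.4% and 26.7%. The ratio of the share at lncRNA starts to that at distal tiles fell, from 2.90 and 2.96 to 2.35 in both, so tiles rose by more in proportion (exact permutation p = 0.33). At equal covered length the difference in share turned to −0.874 points over all starts, −0.564 over CpG-poor and −6.25 over CpG-rich starts. With an equal number of islands it was 0.821 points over all starts, 1.33 over CpG-poor and −8.01 over CpG-rich starts. In narrow peaks it was 1.61 points, and 0.207 with an equal number of them.

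By gene, 231 starts gained H3K27me3 islands after knockdown (1.77%) and 13 lost them (0.0997%), beside 1.02% gained and 0.054% lost among distal tiles and 1.37% and 0.463% among coding starts. Calls in 1 of 2 libraries of each group were seen at 41 starts, or 10.25 for each of the 4 ways, which is close to the 13 lost. With 1 library left out, which loosens the rule so that counts cannot fall, 26 to 34 were lost. Then 280 to 362 were gained, the most without siKDM6B33 replicate 2. Of the gained starts 10 were CpG-rich, and 200 had no narrow H3K27me3 peak in either control. Only 24 had one in both knockdown libraries. KIAA0087 had a coverage of 0% in the controls against 100% in each knockdown library, with a narrow peak of 3.66-fold in knockdown replicate 2 and, without an island, of 4.68-fold in DMSO replicate 2. CYP2B7P, an expressed pseudogene of the cytochrome P450 family, had the same coverage, with a peak of 4.66-fold in knockdown replicate 2 and of 2.85-fold in DMSO replicate 1. MIR100HG, with 31 CpG dinucleotides in its 300 bp, had peaks of 5.41- and 5.61-fold in both knockdown libraries and none in the controls. SKAP1-AS2 went the other way, from 94.8% and 100% to 0%, although a narrow peak of 6.24-fold was called in knockdown replicate 1. At equal covered length 32 starts were gained and 128 lost.

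With GSK-J4 H3K27me3 was called at 5.99% and 6.56% of starts in the DMSO libraries against 8.54% and 6.90% in the treated ones (6.27 ± 0.401% against 7.72 ± 1.16%, SD, n = 2 each, exact permutation p = 0.33). Leaving out GSK-J4 replicate 1 changed the difference of 1.45 points to 0.629, and leaving out replicate 2 changed it to 2.26. In all, 57 starts gained islands (0.437%) and 17 lost them (0.130%), beside 0.185% and 0.0623% of distal tiles and 0.78% and 0.161% of coding starts. With an equal number of islands the share difference turned to −0.372 points, with 23 starts gained against 61 lost. Matching the covered length left 22 gained against 25 lost. Without GSK-J4 replicate 2, 327 were gained, without GSK-J4 replicate 1 or DMSO replicate 2, 116, and without DMSO replicate 1, 91. The lost starts numbered 38 to 60 when 1 library was left out. The rule is looser with fewer libraries, so neither count can fall. Calls in 1 of 2 libraries of each group were seen at 87 starts, or 21.75 for each of the 4 ways, which is more than the 17 lost. MALAT1, an abundant nuclear lncRNA of nuclear speckles on chromosome 11 from 65265111 to 65275544, was covered by H3K27me3 islands to 0% with DMSO and to 64.5% and 100% with GSK-J4, and to 0% in the knockdown experiment. No narrow H3K27me3 peak was called in its window in any library, and H3K4me1 covered it to 64.5% in both DMSO libraries and to 0% and 54.5% with GSK-J4. BCRP3, LINC01315 and LINC02352 went from 0% to 100%, and H3K4me1 covered each of them to at least 91.2% in all 8 libraries. LINC01056 lost H3K27me3, from 61.9% and 100% to 0%. NEAT1, the scaffold of paraspeckles, was covered to 67.8% in DMSO replicate 2 and in both GSK-J4 libraries.

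Some starts kept their calls throughout. H3K27me3 was called in all 8 libraries at 313 lncRNA starts, of which 112 were CpG-rich (35.8%), and H3K4me1 at 683, of which 89 were (13.0%). Both marks were called in all 16 libraries at 73. Of the 13 starts inside the interval from 16 to 17 Mb of chromosome 2 that holds the amplified MYCN, 9 were among these 73, GACAT3 with them at 100% in every library, and MYCNUT had no island. ENSG00000231266 and ENSG00000224400, also among the 9, had 100% in every library and no narrow peak of either mark in any. How far extra DNA copies of the amplified interval add to the calls of both marks there was not tested. Among the strongest peaks were those in the shared window of FAM86DP and LINC02018, with 10.6- to 25.0-fold for H3K27me3 and 15.0- to 33.6-fold for H3K4me1. FAM86B3P had 12.9- to 22.9-fold for H3K27me3, and FAM86C2P was also among the strongest. The FAM86 genes are copies of a duplicated gene family, so reads could fall on the wrong copy and the values are uncertain. FER1L6-AS1, outside that family, had H3K4me1 peaks of 15.5- to 28.6-fold. ECEL1P2 had H3K27me3 at 100% in all 8 libraries with peaks of 9.22- to 13.7-fold, and H3K4me1 at 0% with siCtrl, 97.7% in each knockdown library and 100% in all 4 libraries of the compound experiment. Its H3K4me1 narrow peaks were 5.31-fold in both siCtrl libraries and 10.2- and 7.78-fold after knockdown. Both marks were gained after knockdown at 4 starts, of which LINC01550 has an approved symbol and 2 on chromosome 10 share DNA.

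Motifs were counted in the 300 bp of each start, on both strands. An E-box with the letters CACGTG, which MYC family proteins can bind, was found in 22 of the 180 CpG-rich starts that gained H3K4me1 after knockdown (12.2%), beside 55 of the 712 CpG-rich starts (7.72%) and 4.82% of all lncRNA starts. The ETS letters CCGGAAGT were found in 13 of the 180 (7.22%), beside 4.35% of CpG-rich and 0.813% of all starts. E2F letters, TTTCCCGC or TTTGGCGC, were found in 6 (3.33%), beside 2.39% and 0.698%, and the YY1 letters AAGATGGC in 3 (1.67%), beside 1.69% and 1.52%. The GC box GGGCGG of SP and KLF factors was found in 65.6%, beside 66.0% and 13.4%. NORAD held an E-box and an ETS match, and SNHG5 and MALAT1 a GC box. These matches are a description of the letters and were not tested.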

How the data were processed

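CUT&Tag libraries of H3K27me3 and H3K4me1 were mapped to hg19 by the authors, and the submitters' processing notes name Trim Galore 0.4.4, BWA 0.7.12, Picard 1.65, SAMtools 1.3.1, MACS2 2.1.1, SICER 1.1 and bedtools 2.25.0. The deposited island lists give a score for each region called in 1 library. The deposited narrow peak lists give the fold enrichment over background and the −log10 of p and q. No read counts were used here, and the genome background was estimated from the fold and the −log10 p of the narrow peaks, so intervals for counting error are not given.

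Windows, gene types and starts came from GENCODE release 44 mapped to hg19, on the 22 autosomes, and 0 of the regions lay past a chromosome end. Calls were compared between 2 treated and 2 control libraries with an exact two-sided permutation test, and between classes of windows within the 8 libraries of a mark with an exact two-sided sign-flip permutation test, with Benjamini-Hochberg adjustment within each family. The overlap code was tested on simulated lists. Python 3.11.15, NumPy 2.4.6, pandas 2.3.3, SciPy 1.17.1 and matplotlib 3.10.9 were used.

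Genes were named from 5 lists (imprinted, neuroblastoma-associated, neural, abundant or housekeeping, and cancer-associated), up to 5 for each comparison and direction by the difference in covered percent, up to 5 with the strongest peaks or both marks, and those of the MYCN interval. Members and lists were chosen with earlier results of these data known. The comparisons of CpG-rich windows with coding starts and tiles, the sequences shown, and the splits by H3K27me3 state and name class were added after values were seen. The main tests did not pair libraries by replicate number, and whether libraries of the same number were handled together is not given.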

Additional observations from a re-analysis of the deposited data

Results flagged for a closer look

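Measures of H3K4me1 at lncRNA starts moved one way in both libraries of the knockdown and the other way in both libraries of GSK-J4. The ratio of the share at lncRNA starts to that at distal tiles changed by 0.808 after knockdown and by −0.243 with GSK-J4. The island share of CpG-rich lncRNA starts changed by 27.9 points and by −5.27 points, the latter −2.74 without DMSO replicate 1. CpG-rich coding starts moved in the same directions, by 48.4 and −6.84 points, and CpG-rich distal tiles by 13.7 and −3.18 points. The narrow peak share of CpG-rich lncRNA starts changed by 20.2 points and by −4.35 points. The difference between the experiments was not tested, and the H3K4me1 libraries of the compound experiment were shallower than those of the knockdown experiment.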

How the results depend on the processing

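The gain of H3K4me1 at CpG-rich lncRNA starts after knockdown kept its direction under every alternative run (27.2 to 28.6 points with 1 library left out), and the ratios to distal tiles kept their sign. At equal covered length the H3K27me3 knockdown difference was −0.874 points over all starts, −6.25 at CpG-rich and −0.564 at CpG-poor starts, with 32 gained and 128 lost. With GSK-J4 the CpG-rich H3K27me3 difference was then −0.421 and 22 were gained, and the H3K4me1 differences over all starts were −0.752 after knockdown and −0.514 with GSK-J4 (CpG-poor −0.195). With an equal number of islands the H3K27me3 knockdown difference was −8.01 at CpG-rich starts, with 147 gained and 109 lost. With GSK-J4 it was −0.372 over all starts, −5.06 at CpG-rich and −0.101 at CpG-poor starts, with 23 gained and 61 lost. For H3K4me1 it was −0.337 after knockdown, with 266 gained, and −0.230 with GSK-J4. The H3K4me1 GSK-J4 difference was −0.0729 with at least 50% of the window covered and −0.202 over 20 kb from coding starts, with 58 gained. With windows of 2 kb each side 8 starts lost H3K27me3 with GSK-J4. Narrow peaks limited to a −log10 q of 5 or more gave 3.54 for H3K4me1 after knockdown, against −0.353 with all narrow peaks, and −0.307 with GSK-J4, and an equal number of narrow peaks gave −0.0192 for H3K27me3 and −0.426 for H3K4me1 with GSK-J4. The cause was not tested.

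With 1 library left out, after knockdown 280 to 362 starts gained and 26 to 34 lost H3K27me3, and with GSK-J4 91 to 327 gained and 38 to 60 lost it, while 117 to 168 gained and 123 to 177 lost H3K4me1. These counts cannot fall when a library is left out, since the rule for gained and lost starts is then looser. The CpG-rich H3K27me3 difference with GSK-J4 was −0.281 to 5.48, the lowest without GSK-J4 replicate 1. At CpG-rich starts the H3K4me1 GSK-J4 difference was −7.79 to −2.74. Without GSK-J4 replicate 1 and 2 the H3K27me3 GSK-J4 difference was 0.681 and 2.08 at CpG-poor starts and 0.805 and 3.69 in narrow peaks, and the ratio to tiles differed by −0.320 and −0.0464. Without siCtrl replicate 1 the CpG-poor H3K4me1 knockdown difference was −0.174. The H3K4me1 GSK-J4 difference over all starts was −0.387 to 0.456 in islands and −0.161 to 1.07 in narrow peaks, the lowest of each without DMSO replicate 2. In the 4 control libraries alone the differences were 4.09 and 6.27 points against tiles, −9.08 and −13.7 against coding starts, and 18.1 and 14.3 between CpG-rich and CpG-poor starts for H3K27me3 and H3K4me1, each with an exact sign-flip permutation p of 0.125, the smallest that 4 libraries allow. With the replicate number as a block (replicate block) the island share differences were 2.73, 1.45, 1.22 and 0.0345 points, and 2 pairs cannot give an exact p under 0.5. Deviations of same-numbered libraries correlated at −0.0940 to 0.0576. All 13040 windows were of annotation level 1 or 2, so limiting them to these levels left the same windows and was not run. With 2 libraries a group the exact permutation test used here could not pass the threshold in any comparison of conditions, and differences of depth limit the comparisons of list size.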
